A study of Mus musculus with 9 samples.

Results

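Native neural stem cells (NSCs) of the mouse were compared with cultured mouse cortical neurons over all genes that the array could name. The comparison used 6 of the 9 Affymetrix Mouse430_2 arrays of the series, 3 for each group, chosen by the group that the titles give. The cortical neurons were kept in Neurobasal with B27, glutamine, antibiotics and AraC, which is cytosine arabinoside, a nucleoside analogue that kills dividing cells. The NSCs were grown in DMEM/F12 with N2, heparin, glutamine and antibiotics and with the mitogens EGF and bFGF, both murine, a medium in which neural stem cells divide as floating neurospheres. Per the methods, the neuronal cultures came from dissociated hippocampus or cortex of late embryos or newborn pups, were plated with serum and were later kept without it in the medium with AraC. The source and age of the NSCs and the strain of either group are not given in the sources used here. The remaining 3 arrays were yNSCs, stem-like cells that the study made from neurons with inducible YAP, and they entered the fit only to estimate the spread between arrays. The arrays are titled biological replica A, B and C of each group, and nothing further says how the cultures differed.

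Neural stem cells keep dividing under EGF and FGF signals, hold back neuronal differentiation through Notch and its Hes targets, and carry transcription factors of the Sox family. Cortical neurons have left the cell cycle for good and build axons, dendrites, synapses and ion channels, partly by exchanging broadly used proteins for neuronal relatives of the same family. The comparison therefore addresses how far the stem cell state differs from the differentiated state from which the study set out. Because the media differed between the groups as well, cell state and medium cannot be told apart in any difference below.

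All values below are log2 RMA values, in which 1 unit is a 2-fold difference, and a level of one gene is not comparable with a level of another because each probe set binds with its own strength. The array medians lay between 4.94 and 5.02, and the lower quartiles between 3.67 and 3.73 in neurons and between 3.42 and 3.45 in NSCs. A gene is said to be near background in a group when its mean there was under the mean lower quartile of that group's arrays, and the size of its difference is then uncertain. A gene was called higher or lower when the limma test, adjusted by Benjamini-Hochberg over 18193 genes, gave p under 0.05, and SE is the standard error of the difference in that fit. A two-sided exact permutation test of 3 arrays against 3 cannot give a p under 0.1, and the number of arrays limits the precision throughout. Pearson correlations across genes were 0.9922 to 0.9975 within a group and 0.8422 to 0.8525 between neurons and NSCs. The RNA control probe sets also differed, with the 3' minus 5' value of Actb at 0.03 to 0.21 in neurons and 0.56 to 0.70 in NSCs, and that of Gapdh at -0.19 to -0.17 and 0.11 to 0.28. The part of this in the differences below was not tested.

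The 2 states differed across most of the genome. Of 18193 genes, 6052 (33.3%) were called higher and 6206 (34.1%) lower in NSCs, and 5935 were not called. At least 2-fold differences were called for 3386 genes higher and 2286 lower, and at least 16-fold differences for 144 higher and 279 lower. The median difference over all genes was -0.07, and subtracting each array's median moved it to -0.21 and the calls to 5457 higher and 7969 lower, so small differences below are relative to the scaling. Without the 40% of genes with the lowest mean over all arrays, 3093 lower and 5636 higher calls were left. That mean includes the yNSC arrays and is low for genes high only in neurons. These counts therefore cannot show at which levels the lower calls lay. Because so many genes were called, the counts of the gene groups below are to be read against 33.3% higher and 34.1% lower.

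The NSC arrays carried the markers of stem cells and the neuron arrays those of neurons. Sox3, a transcription factor of neural progenitors, stood at 5.58, 5.53 and 5.98 in neurons A, B and C and at 10.48, 10.51 and 10.10 in NSCs A, B and C, a difference of 4.67 (SE 0.144, adjusted p = 6.5e-11). Tnc, the matrix protein tenascin C of stem cell niches, was at 4.91 to 5.12 in neurons and 11.24 to 11.53 in NSCs. All NSC arrays lay above all neuron arrays for both genes, and likewise for Egfr, Hes5, Sox2, Nes, Vim and Mki67. Stmn2, a microtubule regulator of growing axons, was at 12.90 to 12.96 in neurons and 4.26 to 4.36 in NSCs. Dcx, the doublecortin of young neurons, read 10.25, 10.19 and 10.12 in neurons and 3.48, 3.37 and 3.48 in NSCs, again with no overlap. Fabp7, the brain lipid-binding protein of radial glia, overlapped between the groups, with 13.51 to 13.64 in neurons and 13.47 to 13.72 in NSCs, and was not called (0.07, SE 0.104, adjusted p = 0.57).

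**Figure D1:**
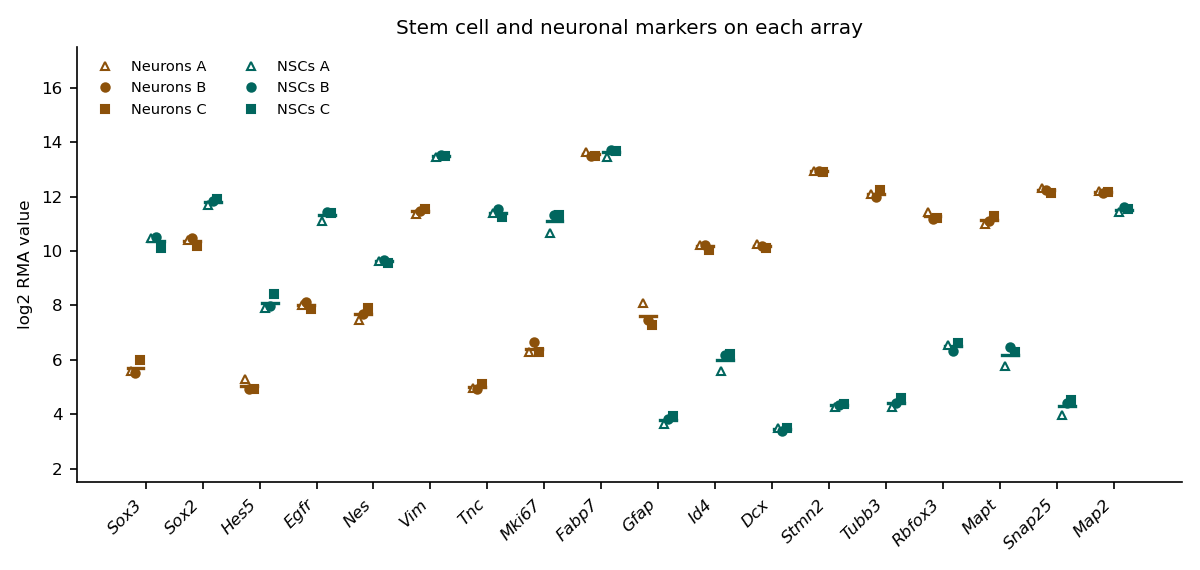
Log2 RMA value of 18 genes on the 6 arrays, with 1 symbol for each array (neurons in brown, NSCs in green) and a bar for the group mean. Stem cell and division markers from Sox3 to Mki67 lie higher in NSCs, Fabp7 overlaps, and the markers from Gfap to Map2 lie lower in NSCs, by 3.81 for Gfap and by 0.65 for Map2.

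The neuron cultures also held RNA of other brain cells. All 15 measured genes of microglia and macrophages were lower in NSCs, with a median of -4.23, and their summed signal, as log2 of the summed linear values, was 12.65 to 13.11 in neurons and 8.18 to 8.25 in NSCs. C1qb, a chain of the first complement component, read 10.65, 10.65 and 10.25 in neurons and 3.35, 3.18 and 3.35 in NSCs, and Tyrobp, a signalling adaptor of microglia, 9.89 to 10.32 and 3.29 to 3.88. C1qb, Aif1 and P2ry12 were near background in NSCs, and Itgam in both groups. The astrocyte list had 4 of 15 genes higher and 7 lower in NSCs, or 26.7% and 46.7% against 33.3% and 34.1% of all genes. Its summed signal was 14.42 to 14.55 in neurons and 13.54 to 13.72 in NSCs. In bulk RNA such as this, fewer cells of a type and less RNA per cell cannot be told apart, and the part of microglia and astrocytes in any other gene's difference was not tested.

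The transcription factors of neural progenitors were mostly higher in NSCs. Among 18 measured factors, 15 were higher and 1 was lower, with a list median of 1.45. Besides Sox3, the factors with the largest differences were Olig2, which specifies oligodendrocytes and marks cultured progenitors (2.70), Emx2 of the embryonic cortex (2.50) and Zic1, a zinc finger factor (2.36). Olig2 read 8.72, 8.88 and 8.83 in neurons and 11.57, 11.63 and 11.33 in NSCs, so it was also well above the lower quartile in the neuron cultures. Sox2 differed by 1.44, from 10.20 to 10.49 in neurons to 11.68 to 11.92 in NSCs, a smaller step than that of its relative Sox3. The factor that was lower was Lhx2 (-1.07), named after its value was seen, which sets cortical identity in the embryo. Nr2e1, an orphan receptor of adult stem cells, was not called (-0.31, adjusted p = 0.063), but was called lower (-0.42 or -0.43) when neuron array C or NSC array B was left out, and the count of lower factors was then 2.

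Proteins that are used to mark radial glia and neurospheres did not move together. Of 20 measured genes, 11 were higher and 8 lower, with a median of 0.42. Lgals1, a galectin of neural stem cells, stood at 9.32 to 9.83 in neurons and 13.39 to 13.60 in NSCs, a difference of 3.93. Itga6, the laminin-binding integrin used to sort stem cells, was higher by 2.89. Gfap, the intermediate filament of astrocytes and adult stem cells, read 8.10, 7.47 and 7.28 in neurons and 3.65, 3.84 and 3.92 in NSCs, so it fell by 3.81 toward the lower end of the scale. Pla2g7, a lipase found in radial glia and astrocytes, was lower in all 3 NSC arrays (5.14, 6.41 and 6.37 against 10.83 to 10.98, adjusted p = 8.4e-09), with replica A 1.25 under the mean of B and C.

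EGF and FGF receptors and the feedback genes of the ERK cascade were higher in most cases, with 16 of 21 higher, 2 lower and a median of 1.53. Only the NSC medium is described with EGF and bFGF, and the part of these mitogens was not tested. Spry1, an inhibitor that ERK signalling induces, read 6.25, 6.69 and 6.56 in neurons and 9.80, 9.99 and 10.01 in NSCs. Dusp6, the phosphatase that switches ERK off, was at 8.75 to 8.89 and 11.42 to 11.47. The arrays of each group lay close together for these genes, and the groups did not overlap. Among the receptors, Egfr differed by 3.30 (SE 0.137), whereas Fgfr1 differed by 1.34 and Fgfr2 by -1.49, so the FGF receptors did not share a direction. Dusp5, another ERK phosphatase, and Erbb3, the neuregulin receptor, were not called (0.28 and -0.17), although Dusp5 was called higher without neuron array B (0.48, adjusted p = 0.0382).

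Notch genes were higher in 14 of 20 cases and lower in 3, with a median of 1.82. Hes1, a repressor of neuronal genes that Notch switches on, stood at 6.09, 5.84 and 6.0 in neurons and at 8.74, 8.96 and 9.00 in NSCs, a difference of 2.92 (SE 0.108, adjusted p = 2.8e-10). The ligands Dll1 and Dll3 were higher by 1.98 and 2.06, and Rbpj, the DNA-binding partner of the Notch receptor, by 2.57. The genes that were lower were Dner, a Notch ligand of neurons (-2.40), Numbl (-0.93) and Jag2 (-0.80). Hey2 was near background in both groups and Heyl was not called, with values of 0.08 and -0.12.

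The other developmental pathways were mixed. In the Hedgehog pathway 8 of 10 genes were higher and 1 lower, with a median of 1.61, including the signal transducer Smo (2.59), the co-receptor Gas1 (2.44) and the factor Gli2 (2.26). Gli1, a target that Hedgehog signalling switches on, was not called (3.73 on every neuron array and 3.70 to 4.01 in NSCs). Of 21 Wnt genes, 13 were higher and 4 lower, with a median of 0.82. Axin2, a Wnt target, was at 5.23 to 5.35 in neurons and 7.61 to 7.63 in NSCs, and the receptor Fzd9 was higher by 3.10, while the secreted Dkk3 fell by 3.23. Tcf7l2, a Wnt transcription factor, was higher by 2.83 in the probe set used, but 1 of its other probe sets was called lower. Lef1, of the same family, was not called with all arrays (-0.32, adjusted p = 0.053) and was called lower without NSC array A (-0.41, adjusted p = 0.0196) or neuron array B (-0.43).

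BMP receptors and Id genes showed no common shift, with 7 of 19 higher, 6 lower and a median of 0.02, but the Id genes parted in opposite directions. Id proteins bind the partners of basic helix-loop-helix factors and keep cells from differentiating. Id3 stood at 4.62, 4.68 and 5.10 in neurons and 9.68, 9.80 and 9.87 in NSCs, and Id1 was at 4.30 to 5.03 and 8.45 to 8.72. Id4 ran the other way, from 10.03 to 10.24 in neurons to 5.58, 6.17 and 6.20 in NSCs A, B and C, and Id2 fell by 1.94. The groups did not overlap for any of these genes. The differences were 4.98 (SE 0.129) for Id3, 3.91 for Id1 and -4.18 (SE 0.154) for Id4. Smad7, an inhibitor of the pathway, and the receptor Bmpr2 were not called (-0.17 and -0.09), and both were called lower when each array's median was subtracted (-0.31 and -0.23).

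Most measured genes of cell division were higher in NSCs, which were grown with mitogens while the neurons were kept with AraC, so cell state and medium cannot be told apart. All 24 measured genes of the mitotic spindle and kinetochore were higher in NSCs, with a median of 4.51. Birc5, the survivin of the chromosomal passenger complex, read 4.33, 4.18 and 4.77 in neurons and 10.18, 9.79 and 9.82 in NSCs, a difference of 5.50 (SE 0.158, adjusted p = 3.5e-11). Bub1, a spindle checkpoint kinase, differed by 5.44, and Cenpa, the histone of centromeres, by 5.29. The lowest NSC array was above the highest neuron array for every gene of this list. Cdc20, which activates the anaphase ligase, was at 5.87 to 6.66 and 11.20 to 11.46, and Cdk1, the mitotic kinase, at 5.44 to 5.88 and 10.15 to 10.48.

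The promoters of mitotic genes are known to carry 2 short elements, the CCAAT box and the TTTGAA core of the cell cycle homology region, and those of replication genes the E2F site TTTNNCGC. The 150 bases before the annotated start are printed 5' to 3' on the strand of the gene for Kif11, a spindle motor (chr19:37376232-37376381, plus strand), Cdc20 (chr4:118437344-118437493, minus), Cdk1 (chr10:69352913-69353062, minus) and Top2a, the topoisomerase that unlinks chromosomes (chr11:99024190-99024339, minus). They have the largest differences of the mitotic list members that have 1 annotated start and hold both elements in this stretch, and capitals mark TTTGAA and CCAAT on either strand. Cdc6, which loads the helicase at origins (chr11:98908001-98908150, plus), and Mcm5, a subunit of that helicase (chr8:75109359-75109508, plus), were chosen likewise from the replication list, with TTTNNCGC on either strand in capitals. All coordinates and bases are RefSeq's on GRCm38.p6.
Kif11: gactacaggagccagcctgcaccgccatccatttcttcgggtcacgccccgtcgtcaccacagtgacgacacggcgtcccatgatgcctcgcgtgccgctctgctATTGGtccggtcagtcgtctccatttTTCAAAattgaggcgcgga
Cdc20: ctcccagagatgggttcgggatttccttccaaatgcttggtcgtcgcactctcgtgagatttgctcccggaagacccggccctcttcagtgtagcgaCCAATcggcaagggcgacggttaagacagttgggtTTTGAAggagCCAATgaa
Cdk1: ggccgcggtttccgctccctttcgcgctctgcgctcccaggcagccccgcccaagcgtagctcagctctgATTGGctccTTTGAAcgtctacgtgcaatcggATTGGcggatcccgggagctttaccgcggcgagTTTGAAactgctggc
Top2a: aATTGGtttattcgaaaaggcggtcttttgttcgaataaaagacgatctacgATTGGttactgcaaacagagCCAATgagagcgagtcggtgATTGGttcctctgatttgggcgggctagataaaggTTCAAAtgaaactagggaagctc
Cdc6: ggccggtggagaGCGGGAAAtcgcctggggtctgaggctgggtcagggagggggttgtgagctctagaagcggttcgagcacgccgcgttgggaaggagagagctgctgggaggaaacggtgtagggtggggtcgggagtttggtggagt
Mcm5: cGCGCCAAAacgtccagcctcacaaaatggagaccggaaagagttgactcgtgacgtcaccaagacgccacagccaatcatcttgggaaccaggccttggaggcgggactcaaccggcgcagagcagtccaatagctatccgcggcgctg

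The differences of these genes were 5.16 for Kif11, 4.95 for Cdc20, 4.61 for Cdk1, 4.59 for Top2a, 4.45 for Cdc6 and 4.27 for Mcm5. The Top2a stretch held 4 CCAAT boxes and the Cdk1 stretch 2 of each element, and no CCAAT box overlapped a TTTGAA match. Over the 250 bases before all 32851 annotated starts, searched on both strands, CCAAT was found in 33.8% of windows, TTTGAA in 16% and TTTNNCGC in 4.28%. Counted per gene, as for the lists, the shares among all tested genes with a window were 39.4%, 14.1% and 6.94%. Of the 20 mitotic genes that had a window, 16 (80%) held CCAAT and 6 (30%) TTTGAA, and of the 20 replication genes with a window 7 (35%) held TTTNNCGC. Among the 14452 tested genes with a window, CCAAT was in 42% of those called higher, 38.3% of those called lower and 37.6% of those not called, and TTTNNCGC in 9.31%, 5.49% and 5.89%. TTTGAA was in 12.9%, 14.9% and 14.4%, so it was not more frequent among genes called higher. A match describes these letters only.

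Replication and nucleotide genes were higher in all but a few cases. Of 24 measured genes of origin licensing and the replication fork, 23 were higher and 1 lower, with a median of 3.30. Mcm3, a helicase subunit, read 4.94, 5.65 and 4.88 in neurons and 10.08, 9.71 and 9.61 in NSCs, and Pold1, the catalytic subunit of a replicative polymerase, differed by 4.53. Orc1, which marks origins, was the member that was lower (-0.44, adjusted p = 0.0214, with NSC A at 6.37 and neuron A at 6.28), and it was not called when neuron array B or C, or NSC array B or C, was left out, which left 0 lower. Of 17 genes of nucleotide synthesis, 16 were higher and 1 lower, with a median of 1.74. Rrm2, the small subunit of ribonucleotide reductase, stood at 6.51 to 6.61 in neurons and 11.35 to 11.88 in NSCs, and Tk1, the thymidine kinase of S phase, at 4.26 to 4.45 and 8.87 to 9.14. Adss, the other exception, fell by 0.51. All 14 measured genes of homologous recombination and repair were higher, with a median of 2.45, led by Brca1 (4.31) and the checkpoint kinase Chek1 (4.25).

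The entry into the cycle and its brakes were raised together. Among 23 genes of G1 cyclins, E2F factors and inhibitors of cyclin-dependent kinases, 20 were higher and none lower, with a median of 2.14. Ccnd1, the cyclin D1 that mitogens induce, was at 8.22 to 8.24 in neurons and at 12.28 to 12.59 in NSCs, a difference of 4.23 (SE 0.104, adjusted p = 1e-11). E2f7, a repressor that E2F factors switch on, was near background in neurons and differed by 4.33. The inhibitors Cdkn2c and Cdkn2b, which block the cyclin D kinases, were higher by 3.44 and 3.09. Cdkn2a, from the tumour suppressor locus, was near background in neurons (2.61 to 3.35) and stood at 6.18, 7.16 and 7.31 in NSCs. Rbl2, a pocket protein of resting cells, was 6.91 in NSC A against 7.67 and 7.73 in B and C and 7.02 to 7.25 in neurons, so its call hung on that array: 0.30 (adjusted p = 0.18) with it and 0.57 (adjusted p = 0.00221) without it. Cdkn2d, another inhibitor of the same family, was not called (-0.23) but was called lower without neuron array B (-0.30), and 1 member was then lower.

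Targets of p53 were higher in 12 of 14 cases and none was lower, with a median of 1.98. Eda2r, a receptor that p53 induces, read 4.41, 3.85 and 4.39 in neurons and 8.50, 8.99 and 8.99 in NSCs. Btg2, an antiproliferative gene, was at 5.42 to 5.77 and 9.41 to 9.53, and Gadd45a, a sensor of DNA damage, differed by 3.57. No array of one group reached the range of the other for these genes. Sesn1 was not called (-0.29, adjusted p = 0.052), but was called lower without neuron array C (-0.36) or yNSC array C (-0.29), and 1 target was then lower.

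**Figure D2:**
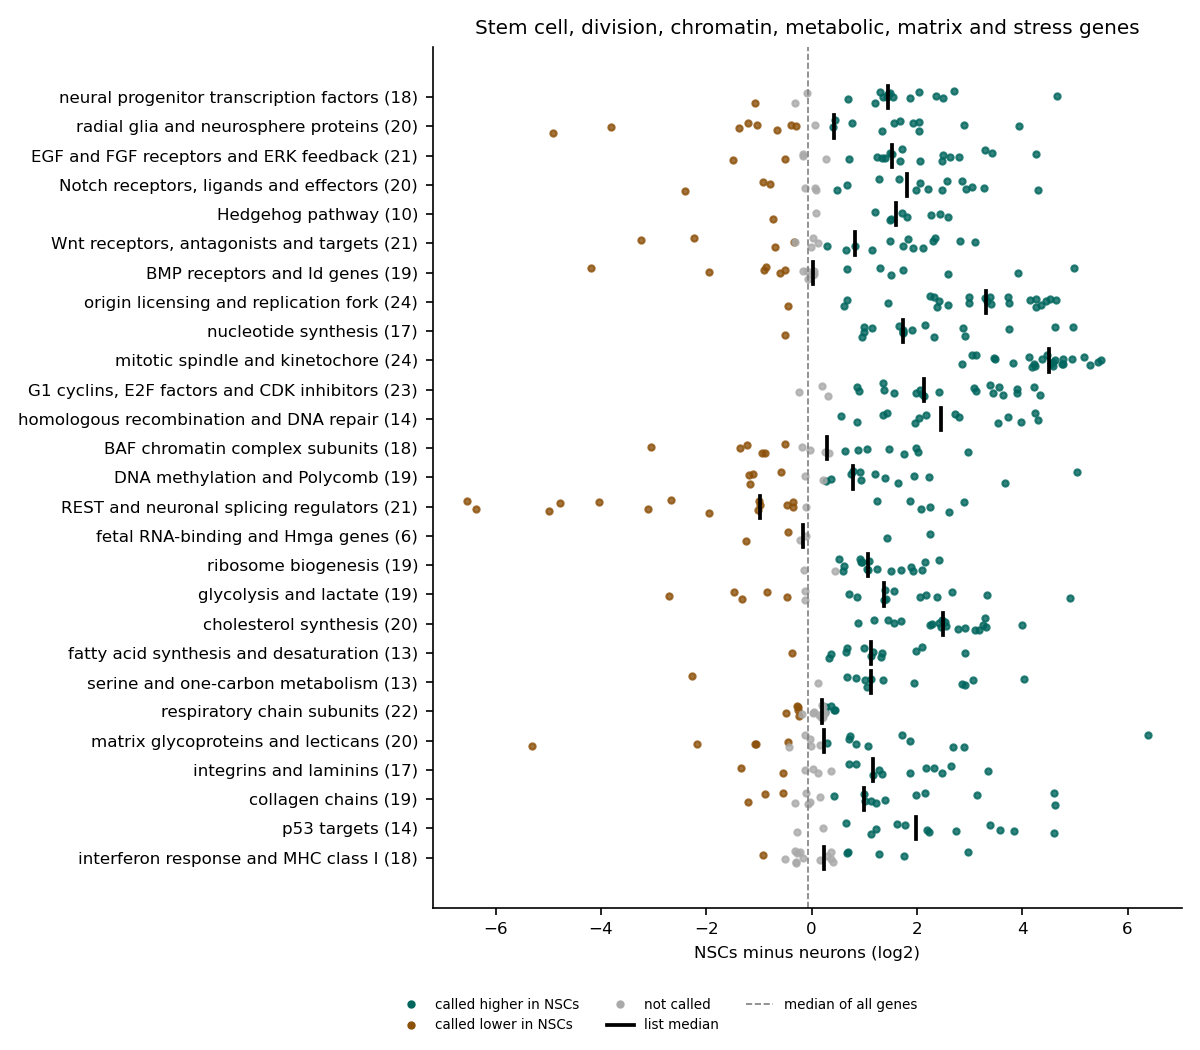
Difference of NSCs minus neurons (log2) for each measured member of the stem cell, division, chromatin, metabolic, matrix and stress lists, with the number of members in parentheses. Points are green where called higher, brown where called lower and grey where not called, bars mark list medians and the dashed line the median of all genes (-0.07), and all members of the mitotic and cholesterol lists lie to the right of that line.

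DNA methylation and Polycomb genes were higher in 13 of 19 cases and lower in 4, with a median of 0.79. Uhrf1, which keeps methylation through replication, stood at 5.29 to 5.80 in neurons and 10.23 to 10.99 in NSCs, and its partner Dnmt1 was higher by 1.39, whereas Dnmt3a, the enzyme that methylates anew, fell by 1.16. Ezh2, Eed and Suz12, which together form the core of the repressive PRC2 complex, were higher by 3.67, 2.24 and 1.94, and 1 further probe set each of Eed and Suz12 was called lower. The subunits of the BAF remodelling complex were higher in 8 of 18 cases and lower in 6, with a median of 0.29, or 44.4% and 33.3% against 33.3% and 34.1% of all genes. Smarce1 and Tet2, from these 2 lists, were called higher only without NSC array A among the arrays left out (0.34, adjusted p = 0.0296, and 0.32, adjusted p = 0.0458). Fetal RNA-binding genes had 2 of 6 higher, Igf2bp3 (2.25) and Hmga2 (1.44), and 2 lower, Lin28a (-1.25), near background in NSCs, and Igf2bp1 (-0.45). Igf2bp1 was not called when neuron array B or C, or NSC array A or C, was left out, which left 1 lower, and it turned to 0.31 without probe sets of the _x_at type, which may bind several genes.

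The REST group and neuronal splicing regulators were lower in 14 of 21 cases and higher in 6, with a median of -0.99. Rest, the repressor that silences neuronal genes outside neurons, read 6.24, 6.14 and 5.77 in neurons and 8.83, 8.71 and 8.46 in NSCs, and its corepressor Rcor2 differed by 1.86. Ptbp1, the splicing repressor that non-neuronal cells use, was at 7.13 to 7.66 and 9.88 to 10.60, although 1 other probe set of it was called lower. Rbfox1, a splicing factor of neurons, went from 9.65 to 9.78 in neurons to 3.05 to 3.24, near background, in NSCs. The neuronal RNA-binding proteins Celf4 (-6.37), Celf5 (-5.0) and Elavl3 (-4.03) were lower as well, and Srrm4, the neuronal microexon regulator, by a smaller amount (-0.35, adjusted p = 0.0278). Nova1, a splicing factor first known from neurons, was higher by 2.08, with 8.91 to 9.23 in NSCs against 6.91 to 7.13.

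Members of a protein family parted between the states. The pairs hold a gene taken as broad and a relative taken as neuronal, and not every relative is confined to neurons. Both names were given when the pairs were chosen and were not checked against other tissues. In 23 measured pairs, the broad gene was higher in 17 and lower in 4, and the neuronal gene was lower in 21 and higher in 0. Both happened together in 15 pairs. The median difference was 1.75 for the broad and -2.77 for the neuronal genes. The largest gap was between Tubb6 (4.50) and Tubb3 (-7.68), beta tubulins of most cells and of neurons, with a difference of differences of 12.18 (SE 0.233). Snap23 and Snap25, the membrane fusion proteins of general and of synaptic secretion, differed by 2.42 and -7.94. Kif5b and Kif5a, motors of transport along microtubules, differed by 1.01 and -6.92, with Kif5a near background in NSCs.

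Complexes of the nucleus parted in the same sense. Actl6a, the actin-like BAF subunit of progenitors, read 6.40, 6.58 and 6.79 in neurons and 9.93, 9.30 and 9.43 in NSCs, and Actl6b, its neuronal counterpart, 6.62, 6.27 and 5.88 and 3.25, 3.15 and 3.23. The groups were apart for both genes, in opposite order. For the further BAF pairs the differences were 2.02 for Ss18 and -0.94 for Ss18l1, 1.75 for Dpf2 and -0.51 for Dpf1, and 1.05 for the ATPase Smarca4 and -1.36 for Smarca2. Ezh2 and Ezh1, alternative enzymes of PRC2, differed by 3.67 and -1.20. Dpf1 was not called when neuron array A, or NSC array B or C, was left out, nor with the average over its probe sets (-0.01).

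Some pairs moved only in part. Hk2 and Slc2a1, a hexokinase and a glucose transporter taken as the broad members, were higher by 4.91 and 2.67. Hk1 and Slc2a3, taken as the neuronal members, were not called (-0.13 and -0.12). Slc2a3 read 10.61 in NSC A against 11.27 in B and C and 11.13 to 11.20 in neurons. Stmn1 and Camk2d, taken as the broad members, were themselves lower (-1.38 and -1.34), though less than Stmn2 (-8.61) and Camk2a (-3.20). Dnm2 and Ap3b1, also broad members, were lower by small amounts (-0.36 and -0.31), and Dnm2 was not called without NSC array C, nor Ap3b1 without neuron array B or NSC array A. Map4 and Map2 had the smallest gap (0.43 and -0.65), and with the average over each gene's probe sets Map4 turned to -0.22 and the gap to 0.09. Elavl1, an RNA-binding protein higher by 2.51 in the probe set used, had 3 others called higher and 2 called lower.

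**Figure D3:**
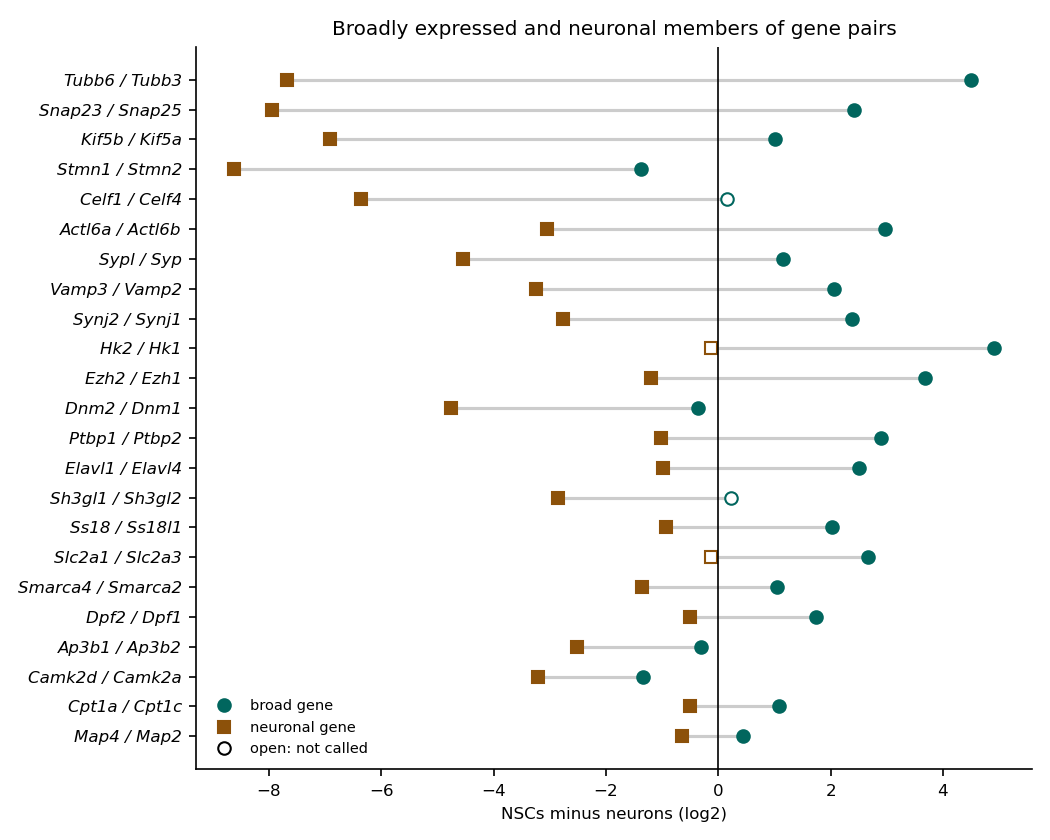
Difference of NSCs minus neurons (log2) for the genes taken as broad (green circle) and as neuronal (brown square) in 23 pairs, joined by a line. Open symbols mark a gene that was not called. The broad gene lies to the right of the neuronal gene in every pair, from a gap of 12.18 for Tubb6 and Tubb3 to 1.08 for Map4 and Map2.

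Biosynthetic genes were higher across several routes. All 20 measured genes of cholesterol synthesis were higher, with a median of 2.50. Mvd, which decarboxylates mevalonate, read 6.06, 5.33 and 5.28 in neurons and 8.83, 8.91 and 8.89 in NSCs, and Idi1, the next isomerase of the route, 7.85 to 8.24 and 11.18 to 11.44. Srebf2, the transcription factor that controls these enzymes, was itself higher by 3.11. Every NSC array was above every neuron array for all of these genes. The sterol element TCACNCCAC was found for 1 of the 16 genes of the list that had a promoter window (6.25%). Among all tested genes with a window the share was 1.27%. Fatty acid synthesis genes were higher in 12 of 13 cases, with a median of 1.12, led by Acss2, which makes acetyl-CoA from acetate (2.92), and Elovl6, a fatty acid elongase (2.09), and the exception Elovl7 (-0.38) was not called without neuron array B or C or NSC array A, which left 0 lower.

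One-carbon metabolism and ribosome production followed. Of 13 genes of serine and one-carbon metabolism, 11 were higher and 1 lower, with a median of 1.13. Mthfd1l and Shmt2, enzymes of the mitochondrial folate route, stood at 5.87 to 6.37 and 6.08 to 6.58 in neurons and at 9.96 to 10.21 and 9.35 to 9.41 in NSCs. Shmt1, the cytosolic counterpart of Shmt2, ran the other way, with 9.23, 10.12 and 9.92 in neurons and 7.72, 7.41 and 7.35 in NSCs, a difference of -2.26 (SE 0.218). The mitochondrial and the cytosolic enzyme of the same reaction thus had opposite signs. Of 19 ribosome biogenesis genes, 17 were higher and none lower, with a median of 1.07, including Dkc1, which modifies ribosomal RNA (2.41), and the polymerase subunit Polr1b (1.92). Polr1b read 7.72 in NSC A and 6.76 and 6.91 in B and C, and Bop1, also of ribosome assembly, was not called (0.45), but was called higher without NSC array C (0.65).

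Genes of sugar metabolism differed by isoform. In the glycolysis and lactate list 12 of 19 genes were higher and 5 lower, with a median of 1.37. Hk2 read 5.46, 5.73 and 4.54 in neurons and 10.10, 10.21 and 10.15 in NSCs. Pfkl, the liver form of phosphofructokinase, was higher by 3.34, while the muscle form Pfkm and the platelet form Pfkp were lower (-0.84 and -1.48). Ldha and Ldhb, the lactate dehydrogenase chains, differed by 1.37 and -1.33, and Eno2, the neuronal enolase, was at 8.28 to 8.78 in neurons and 5.34, 6.22 and 6.05 in NSCs. Subunits of the respiratory chain hardly moved, with 6 of 22 higher, 5 lower, a median of 0.20 and no difference beyond -0.48 (Cox8a) and 0.45 (Ndufa9). With 1 array left out, 3 were higher without neuron array B or NSC array B, and 3 lower when neuron array A or C, or NSC array C, was left out. Sdhc, called higher (0.36), was lost without NSC array B (0.24), and Uqcrfs1 was gained without NSC array A (0.32).

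Matrix glycoproteins and lecticans were higher in 10 of 20 cases and lower in 5, with a median of 0.23. Beside Tnc, the basement membrane linkers Nid1 and Nid2 were higher by 2.90 and 2.69, with Nid2 near background in neurons. Hapln1, the link protein of perineuronal nets, went from 7.99, 7.82 and 7.66 in neurons to 2.51, 2.50 and 2.50 in NSCs, near background there, a difference of -5.32 (SE 0.110). Bcan, a lectican, was not called (0.16). Integrins and laminins were higher in 11 of 17 cases and lower in 2, with a median of 1.17, including the laminin receptor Itga7 (3.35) and the laminin chain Lamb2 (2.47). Lama5, another laminin chain, spread widely in neurons (4.22, 5.39 and 6.38) against 7.69 to 8.30 in NSCs. Itgav was higher by 2.33 in the probe set used, with 1 other probe set lower and the average over its probe sets not called (0.18).

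Collagen chains were higher in 11 of 19 cases and lower in 3, with a median of 1.0. Col5a2, a fibrillar chain, read 5.10, 4.81 and 4.54 in neurons and 9.05, 9.59 and 9.68 in NSCs, and Col4a5, a basement membrane chain, 5.09 to 5.37 and 7.92 to 8.79. Col12a1 differed by 4.60 from near background in neurons, with 1 other probe set called lower. The chains that were lower were Col6a1 (-1.22), Col2a1 (-0.88) and Col25a1 (-0.54), the last a collagen of neurons. Col9a1 was not called (-0.32) but was called lower without neuron array A (-0.55). Itga5 was likewise not called (0.37) and was called higher without neuron array C (0.49) or NSC array B (0.53).

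Neuronal structure genes were lower with almost no exception. Of 25 measured genes of the neuronal cytoskeleton, 24 were lower and none higher, with a median of -2.63. Stmn4, a stathmin of neurons, read 11.59, 11.26 and 11.47 in neurons and 5.49, 5.68 and 5.54 in NSCs, a difference of -5.87 (SE 0.140, adjusted p = 7.9e-12). Nefl, the light neurofilament chain, fell by 4.05, whereas Nefm, the medium chain, was at 6.06 to 6.27 and 5.91 to 6.48 and was not called (0.04). Map2, the dendritic protein, was still at 11.43 to 11.61 in NSCs against 12.15 to 12.21 in neurons, so its fall of 0.65 was among the smallest of the list, and with the average over its probe sets it was not called (-0.31, adjusted p = 0.0532).

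The machinery of transmitter release fell likewise, with 26 of 27 genes of synaptic vesicle release lower and a median of -2.94. Sv2b, a vesicle protein, stood at 10.85 to 11.00 in neurons and 3.35 to 3.86 in NSCs, and Rab3c, a vesicle GTPase, at 9.86 to 10.30 and 3.28 to 3.48, near background. Syt1, the calcium sensor of release, read 12.06, 12.04 and 12.17 in neurons and 7.24, 6.95 and 7.0 in NSCs, a difference of -5.03 that left it well above the lower quartile of the NSC arrays. Sv2c, a relative of Sv2b named after its value was seen, was the member that was higher (1.14), from near background in neurons. All 17 genes of dense-core vesicles and neuropeptides were lower, with a median of -4.43. Cck, the peptide cholecystokinin, was at 10.97 to 11.47 and 3.82 to 4.15, and Chgb, a granin of the vesicle core, at 10.83 to 11.03 and 3.67 to 3.89. Scg2, a further granin, read 3.27 in NSC A and 4.05 and 4.28 in B and C.

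Receptors for transmitters fell in most but not all families. Glutamate receptors and the postsynaptic density had 16 of 22 genes lower and 2 higher, with a median of -1.42. Dlg2, a scaffold of the synapse, went from 9.44 to 9.68 in neurons to 2.43 to 2.62 in NSCs, near background, and Gria1, an AMPA receptor subunit, from 9.67 to 9.80 to 4.01 to 4.16. Gria3, of the same receptor, behaved otherwise and was not called with all arrays (0.43, adjusted p = 0.072), with 7.89 to 8.31 in neurons and 8.13, 8.53 and 8.90 in NSCs. It was called higher without neuron array A (0.54) or NSC array A (0.63). The 2 members called higher were Grin2c (1.26), near background in neurons, and Grin3a (0.39), both named after their values were seen, and 1 was higher without neuron array B or C. GABA and glycine receptors had 10 of 13 lower and 1 higher, with a median of -3.11, or 5 lower without the 40% of genes with the lowest mean. Gabra5 (-6.49) and Glra2 (-4.70) were near background in NSCs, Gabrb1 fell by 6.34, and the member that was higher was Gabrg1 (1.95).

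Ion channels fell with named exceptions. Of 21 voltage-gated sodium and calcium channel genes, 20 were lower and 1 higher, with a median of -2.63. Scn2a, the sodium channel of early axons, read 10.61, 10.21 and 10.42 in neurons and 4.59, 4.84 and 4.63 in NSCs, and the accessory subunit Scn3b differed by -5.68. Cacna1h, a T-type calcium channel, was the exception (0.80). Of 22 potassium channel genes, 17 were lower and 3 higher, with a median of -1.99. Kcnq3, which carries the M current, was at 9.77 to 10.23 in neurons and 4.61 to 5.01 in NSCs. The 3 that were higher, chosen after their values were seen, were Kcnc1 (3.04), Kcna2 (2.29) and Kcnd3 (2.12), and each had NSC arrays above all neuron arrays, with 10.11 to 10.21 against 6.95 to 7.25 for Kcnc1. Without the 40% of genes with the lowest mean, 13 sodium and calcium channels and 9 potassium channels were lower.

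Transcription factors of neuronal subtypes were mostly lower. Among 21 factors of cortical projection neurons, 14 were lower and 4 higher, with a median of -1.92. Neurod6, a factor of cortical pyramidal neurons, went from 10.36, 9.91 and 9.73 in neurons to 2.08, 2.13 and 2.13 in NSCs, near background. Bcl11a (-3.90) and Bcl11b (-3.03), factors of deep layers, and Myt1l, a repressor of non-neuronal genes (-4.14), were lower as well. The 4 that were higher, all named after their values were seen, were Zfpm2 (3.04), Sox5 (1.68), Rorb (1.35) and Pou3f3 (0.99), of which none was near background in NSCs. Pou3f2 was not called (0.40) but was called higher without neuron array A (0.60) or NSC array C (0.55), and Cux2 was not called (-0.23) but was called lower without NSC array A (-0.35).

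Genes of GABAergic interneurons were lower in 11 of 14 cases and higher in 1, with a median of -3.59. Calb1, the calcium-binding calbindin, read 11.11, 11.08 and 10.98 in neurons and 2.81, 2.85 and 3.01 in NSCs, near background, and Gad1, which makes GABA, 11.81 to 11.96 and 5.72, 6.77 and 6.84. Reln, the secreted reelin of Cajal-Retzius cells and interneurons, differed by -6.79. Pvalb, the parvalbumin of mature interneurons, was at 4.59 to 5.17 in neurons and 4.63 to 5.07 in NSCs and was not called (-0.13). Receptors for neurotrophins and axon guidance cues had 13 of 21 lower and 3 higher, with a median of -0.65, with the ephrin receptors Epha4 (-3.66) and Epha7 (-3.27) leading and the netrin receptor Dcc not called (-0.18). Epha5 read 6.51 in NSC A and 7.73 and 7.84 in B and C, and its other probe sets were called in both directions.

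**Figure D4:**
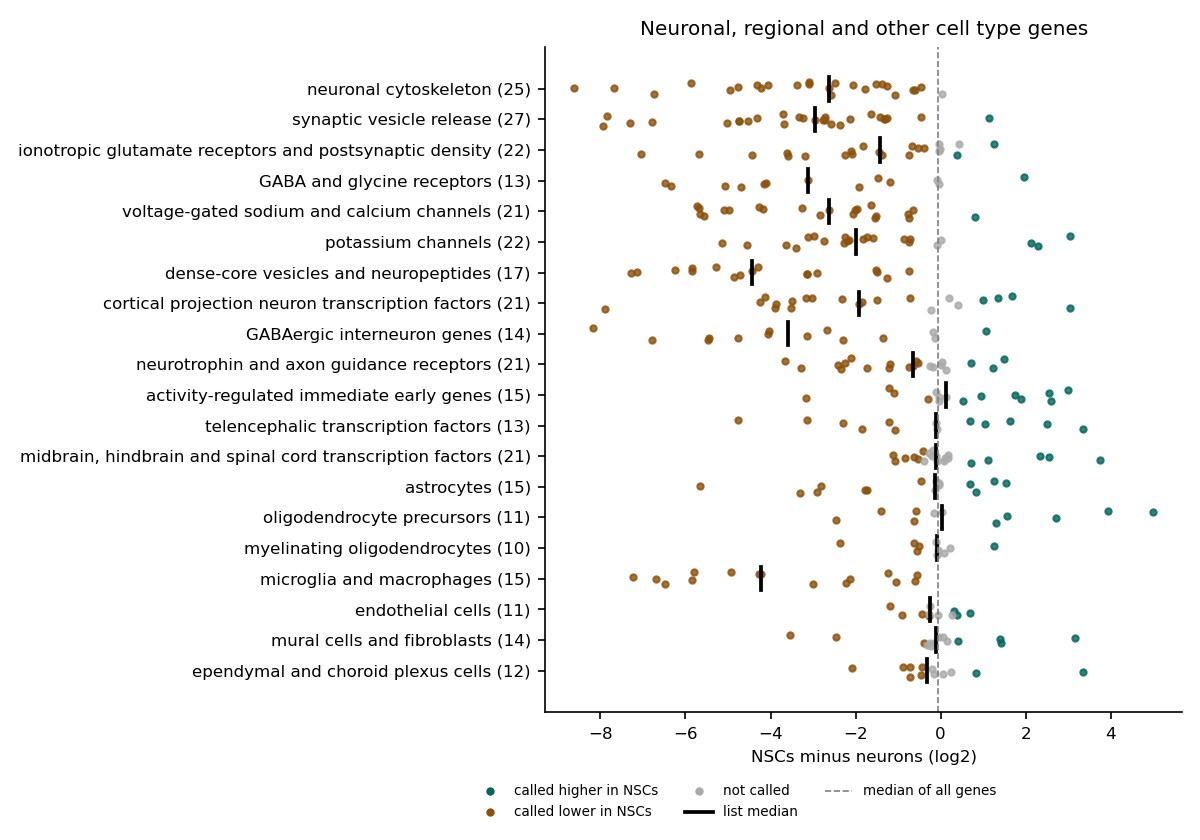
Difference of NSCs minus neurons (log2) for each measured member of the neuronal, regional and other cell type lists, with symbols as in the plot of the stem cell and division lists. The dense-core vesicle and microglia lists lie wholly on the lower side, with medians of -4.43 and -4.23, while the immediate early, regional and glial lists spread to both sides of the median of all genes (-0.07).

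Immediate early genes, which synaptic activity or growth factors switch on within minutes, did not follow the other neuronal lists. Of 15 measured, 7 were higher and 4 lower, with a median of 0.11. Egr1, a zinc finger factor of this class, stood at 8.74 to 9.21 in neurons and 11.52 to 11.62 in NSCs, and Fos was at 7.84 to 8.14 and 9.64 to 10.14. Nr4a3, an orphan receptor, went the other way, from 9.51 to 9.58 in neurons to 6.22 to 6.57. Egr2 and Nptx2 were higher by 2.55 and 3.0, whereas Egr3 and Npas4, the latter responding to calcium entry in neurons, were lower (-1.23 and -1.10). Nr4a1 and Dusp1 were not called (-0.12 and 0.11). The Egr genes therefore did not share a direction.

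Regional transcription factors were called in both directions, as genes at large were, with 33.3% higher and 34.1% lower. Telencephalic factors were 38.5% higher and 46.2% lower. Midbrain, hindbrain and spinal cord factors were 23.8% higher and 28.6% lower, and 9 of these 21 were near background in neurons and 7 in NSCs. Of 13 telencephalic factors, 5 were higher and 6 lower, with a median of -0.12. Otx2, a factor of forebrain and midbrain, read 4.20, 4.10 and 3.92 in neurons and 7.14, 7.53 and 7.61 in NSCs, and Emx2, of the dorsal telencephalon, 5.73 to 6.14 and 8.21 to 8.48. Dlx1 and Lhx6, factors of the ventral telencephalon and its interneurons, were lower (-4.77 and -3.14). Among 21 factors of midbrain, hindbrain and spinal cord, 5 were higher and 6 lower, with a median of -0.11, and only 1 was lower without the 40% of genes with the lowest mean. En2, which marks the midbrain-hindbrain boundary, was near background in neurons (2.81, 2.94 and 3.22) and stood at 6.73, 6.71 and 6.75 in NSCs, and Gbx2, of the same boundary, was at 2.70 to 2.83 and at 5.56, 4.82 and 4.85. Hoxb3, of the hindbrain, differed by -1.12. Pax5 was called lower without neuron array A (-0.61) or NSC array C (-0.50) and Pax7 without neuron array C (-0.35) or NSC array A (-0.37), but neither with all arrays.

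Glial genes were called in both directions, as genes at large were. Astrocyte genes were 26.7% higher and 46.7% lower, and oligodendrocyte precursor genes 45.5% and 36.4%. The shares of all genes were 33.3% and 34.1%. Among astrocyte genes, Aqp4, the water channel of end feet, was at 10.42 to 10.76 in neurons and at 3.40, 5.62 and 5.90 in NSCs, and the glutamate transporter Slc1a2 and the anion transporter Slco1c1 differed by -2.81 and -3.30. Sox9, which progenitors also use, was higher by 1.54, and Gja1, the connexin of astrocytes, was not called (-0.12). Of 11 genes of oligodendrocyte precursors, 5 were higher and 4 lower, with a median of 0.04, and the summed signal was 12.21 to 12.24 in neurons and 13.56 to 13.72 in NSCs. Bcas1, of early oligodendrocytes, read 4.80, 5.56 and 5.42 in neurons and 9.95, 10.32 and 10.49 in NSCs, and Nkx2-2, a factor of the lineage, differed by 3.93. Pdgfra and Sox10, defining genes of the precursors, were lower (-2.46 and -1.40).

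Of 10 genes of myelinating oligodendrocytes, 1 was higher and 4 lower, with a median of -0.09 and a summed signal of 9.59 to 10 in neurons and 10.37 to 10.73 in NSCs. Mbp, a main protein of myelin, went from 6.87 to 7.14 in neurons to 4.48 to 4.73, whereas Cnp, an enzyme of the lineage, was higher by 1.26. Mag (-0.57) was not called without neuron array B or NSC array A. Endothelial genes had 3 of 11 higher and 4 lower, with 5 near background in each group and a summed signal of 7.67 to 7.87 in neurons and 7.33 to 7.42 in NSCs. They were 2 lower when neuron array A, or NSC array A or B, was left out, and Kdr (-0.43), the receptor of vascular growth factor, lost its call without any of those or neuron array B. Mural and fibroblast genes had 4 of 14 higher and 3 lower, or 5 lower without neuron array B, with a summed signal of 10.38 to 10.53 and 9.94 to 10.24. Acta2, smooth muscle actin, was higher by 3.15, with 1 other probe set lower, and Dcn, the matrix protein decorin, fell by 3.54. Ependymal and choroid plexus genes had 2 of 12 higher and 6 lower and a summed signal of 8.60 to 8.87 and 8.73 to 8.90, with Ttr, the transthyretin of choroid plexus, at 6.65 to 7.59 in neurons and 4.96 to 5.10 in NSCs.

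Interferon response and MHC class I genes were largely not called, with 5 of 18 higher, 1 lower and a median of 0.22. H2-K1, a classical class I chain, stood at 8.01, 8.05 and 7.73 in neurons and 10.87, 10.97 and 10.83 in NSCs, and H2-D1, another class I chain, at 7.63 to 8.25 and 9.13 to 9.45. Probe sets of these chains may share transcripts, because the genes are alike in sequence. Ifit3, which interferon induces, was lower (-0.92), and Oasl2 and Usp18 were not called. The count of higher genes was 8 without NSC array A, and that of lower genes was 2 when neuron array C, NSC array B, yNSC array A or yNSC array C was left out.

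The largest differences over all genes reached beyond the lists. After Fbln2, a matrix protein (6.47), and Car3, a carbonic anhydrase (6.45), came Tnc, Adm, the peptide adrenomedullin (6.12), Chst7, which sulfates chondroitin (5.97), Cd93, a receptor of endothelial and myeloid cells (5.90), and Cavin1, which coats caveolae (5.88). Car3 read 5.04, 5.31 and 5.26 in neurons and 11.52, 11.60 and 11.84 in NSCs, and Adm 4.23, 4.43 and 4.10 and 10.18, 10.42 and 10.51. Both lay far apart between the groups, whereas Fbln2 spread from 3.47 to 5.0 within neurons. The mitotic genes Depdc1a (5.76), Kif18a (5.67) and Cdca8 (5.52) and the imprinted gene Peg12 (5.71) followed, all but Cdca8 near background in neurons. At the other end stood Stmn2, Lyz1, the lysozyme of macrophages (-8.59), Ccn3, a secreted matricellular protein (-8.21), Calb1 and Tenm2, an adhesion protein of synapses (-8.16), of which all but Stmn2 were near background in NSCs. Lyz1 read 11.97, 11.64 and 11.08 in neurons and 2.86, 2.61 and 3.44 in NSCs, lower in NSCs as were the genes of the microglia list, and the part of those cells in it was not tested. Grp, a neuropeptide, and Sphkap, a kinase anchor, fell by 7.67 and 7.64.

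NSC replica A stood apart from replicas B and C in a limited set of genes. It correlated with B at 0.9929 and with C at 0.9922, against 0.9975 between B and C. It lay more than 2-fold from the mean of B and C for 162 genes, 8 above and 154 below, whereas the same count was 5 for NSC B, 11 for NSC C and 24, 26 and 30 for the neuron arrays. The count was 116 after quantile normalization of all arrays again, 142 without the 40% of genes with the lowest mean and 91 with the average over each gene's probe sets. The 3' minus 5' value of Actb was 0.62 in replica A and 0.56 and 0.70 in B and C, and that of Gapdh was 0.28 against 0.11 and 0.13. Because these 162 genes were chosen by their values, they are described without a test.

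The gene furthest below in replica A was Nupr1, a stress-induced nuclear protein, which read 4.77 in A, 7.52 in B and 7.79 in C, against a neuron mean of 4.06. Aqp4 read 3.40 against 5.62 and 5.90, and Gcc2, a Golgi protein, 7.0 against 8.69 and 8.68. Further genes of the 162, chosen after their values were seen, were Vegfa, the vascular growth factor, with 8.39, 9.71 and 9.62 in A, B and C, Slc16a3, which exports lactate, with 5.40, 6.57 and 6.69, and Cenpf, a kinetochore protein, with 8.23, 9.62 and 9.58. The glycolysis and lactate list had a median of A minus the mean of B and C of -0.355. Of its 19 genes 1 was over 2-fold below and 0 were over 2-fold above. Pgk1 read 12.75, 13.32 and 13.30 and Pdk1 9.79, 10.56 and 10.51 in A, B and C. Other genes of like function moved less or not at all. Hk2 read 10.10, 10.21 and 10.15 and Slc2a1 11.23, 11.19 and 11.36 in A, B and C, and 2 of the 24 mitotic spindle and kinetochore genes were over 2-fold below, with a list median of -0.12 and Birc5 at 10.18, 9.79 and 9.82. Of the 15 astrocyte genes 3 were over 2-fold below, which were Aqp4, Ttyh1 (6.84 against 8.24 and 8.17) and Ndrg2 (6.86 against 8.14 and 8.06). Glul, Sox9, Acsbg1 and Mlc1 of the same list were higher in A than in both B and C, with Sox9 at 9.39 against 9.28 and 9.25.

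Over whole lists the shift of replica A went both ways. The median of A minus the mean of B and C was 0.42 for nucleotide synthesis and 0.41 for origin licensing and the replication fork. Mcm2 read 10.33, 9.58 and 9.70 in A, B and C and Cad, of pyrimidine synthesis, 9.60, 8.67 and 8.67. The median shift was -0.35 for glycolysis and lactate, -0.33 for astrocytes and -0.20 for radial glia and neurosphere proteins. No member of the progenitor transcription factor list, the Notch list or the neuronal cytoskeleton list was over 2-fold from B and C. The 8 genes above B and C included Matn2, a matrix protein (8.27 against 7.10 and 7.37), Prmt7, an arginine methyltransferase (9.11 against 8.20 and 7.93), and Rrp12, of ribosome assembly (6.78 against 5.73 and 5.54).

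The fit without replica A called 6140 genes higher and 5782 lower, with 11499 genes called in both fits, 759 only with it and 423 only without it, and no called gene changed sign. Of the 162 genes, 112 were called with replica A and 136 without it. These genes were chosen by the distance of A, which widens their spread in NSCs, so a gain of calls without A follows in part from the choice. For 104 of the 162 genes A lay toward the neuron mean from B and C. Nupr1, for example, differed by 2.63 (adjusted p = 0.0015) with A and by 3.60 (adjusted p = 4.56e-09) without it, and Aqp4 by -5.65 and -4.86. Gcc2 was called lower in both cases, but its difference shrank from -0.92 (adjusted p = 0.0344) to -0.36 (adjusted p = 0.024) without A, and it lost its call when any 1 neuron array was left out. Slc7a3, an amino acid transporter, was not called with A (-0.87, adjusted p = 0.0706) or without it (-0.26, adjusted p = 0.267), but was called lower without NSC array B (-1.12) or C (-1.23). Draxin, a guidance protein, was called higher by 1.04 (adjusted p = 0.0223) with A and by 1.59 (adjusted p = 1.36e-05) without it, and lost its call without neuron array A (0.99) or C (0.98) or NSC array B (0.65) or C (0.88).

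**Figure D5:**
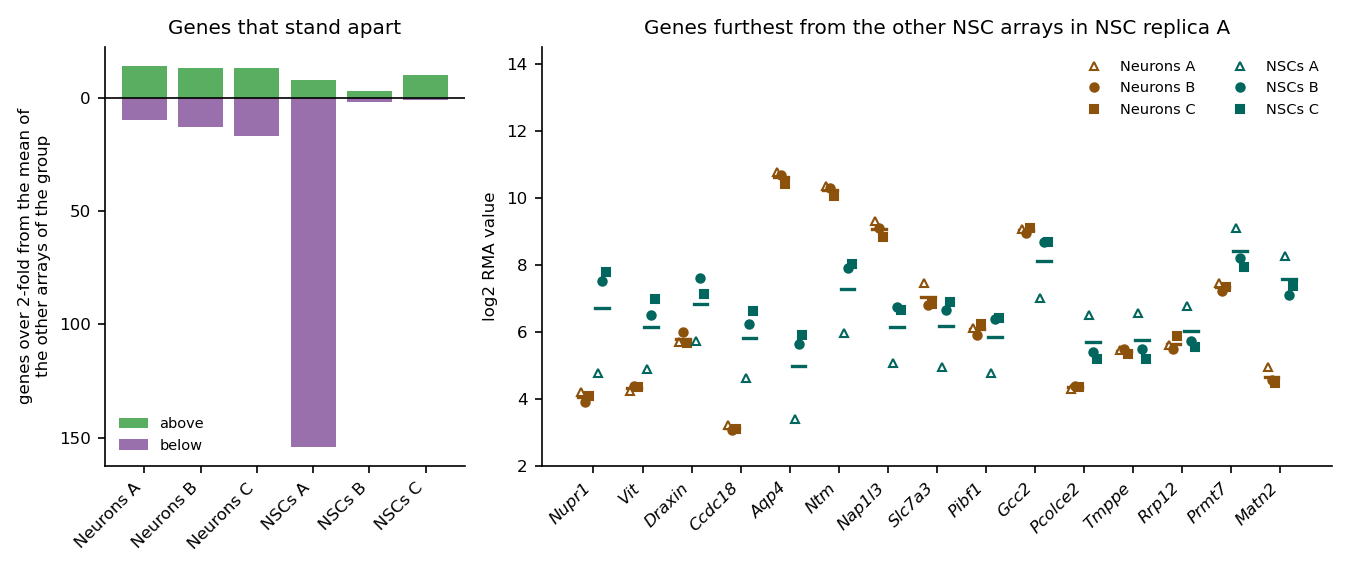
Left, the number of genes over 2-fold above (green) or below (purple) the mean of the other arrays of the group, for each of the 6 arrays, with 154 below and 8 above in NSC A. Right, log2 RMA value on each array for the named genes furthest from the mean of NSCs B and C in NSC A, with bars for group means, such as Nupr1 at 4.77 against 7.52 and 7.79.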

How the data were processed

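Total RNA of 3 neuron, 3 NSC and 3 yNSC cultures was hybridised to Affymetrix Mouse430_2 arrays. The deposited log2 values were made by the authors with RMA (background correction, quantile normalization and summary of the probes of a probe set), per the submitters' processing notes. The software and the set of arrays normalized together are not given in the sources used here. Intensities of single probes were not analysed here.

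Of 45101 probe sets, 64 were controls, 34945 had 1 gene symbol in the platform annotation, 932 had several and 9160 are not named here. Symbols were updated through RefSeq gene IDs (34741 matched). For 9010 of the 18193 genes with more than 1 probe set, the one whose mean over 9 arrays was highest stood for the gene. That mean holds 3 neuron arrays beside 3 NSC and 3 yNSC arrays, so the choice can favour probe sets that are high in NSCs. Its part in the calls was not tested. Of 6737 called genes with more than 1 probe set, 1036 had a probe set called the opposite way. With the average over each gene's probe sets, 2692 genes were at least 2-fold higher and 2003 at least 2-fold lower. The chosen probe sets gave 3386 and 2286. A group means model was fitted with limma 3.58.1 in R 4.3.3 (lmFit and eBayes, 6 residual and 5.59 prior degrees of freedom), and p-values were adjusted by Benjamini-Hochberg. Tables and figures were made with Python 3.11.15, pandas 2.3.3 and matplotlib 3.10.9. The fit was checked on simulated data.

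The members and gene lists were chosen with earlier results of these data known. Per list, up to 4 called and 2 not called members of largest difference were named, with the 12 highest and 12 lowest genes whose groups did not overlap, all paralog pairs, the 10 genes furthest above and below in NSC replica A, and fixed markers. All other genes named were chosen after their values were seen. Promoters are RefSeq's windows on GRCm38.p6, searched by letters on both strands. Alternatives were the replicate block, the 6 compared arrays alone, subtraction of array medians, a filter that removed the 40% of genes lowest in mean, repeated quantile normalization, other handling of probe sets, a variance trend with a robust prior, and each array left out.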

Additional observations from a re-analysis of the deposited data

How the results depend on the processing

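Of 253 called genes among the 328 named by rule, 239 kept their call wherever tested among 8 alternatives and 9 fits with an array left out. The rule named called genes mainly by large differences, which favours a kept call, so this count does not speak for all called genes. Over all genes, 759 calls were lost without NSC array A and 11499 were kept. A gene that a filter removed was not tested in that alternative and was not counted as lost. Of 1598 counts over gene lists, 1507 stayed within 1.5 times. With each array left out, 5796 to 6140 genes were higher and 5677 to 6081 lower, and at least 2-fold differences numbered 3337 to 3462 and 2239 to 2338. Without the 40% of genes of lowest mean, 3093 genes were lower and 5636 higher. Fewer genes were tested, and the mean over all 9 arrays is low for genes high only in neurons. The lower members fell to 5 for GABA and glycine receptors, 13 for sodium and calcium channels and 9 for potassium channels. They fell to 1 each for midbrain and hindbrain factors, myelin genes and endothelial genes, and to 2 for ependymal genes. With this filter 2 mural genes were higher. With each probe set on its own, 11495 were higher and 11088 lower, as more were tested. Quantile normalization again left 2 myelin and 2 endothelial genes lower and gave 7 mural and 9 interferon genes higher. Respiratory chain genes higher numbered 3 with the 6 arrays alone, 2 after quantile normalization again, 2 after subtracting array medians, 11 with the variance trend, and 3 to 7 with an array left out. Endothelial genes lower numbered 2 to 5 and interferon genes higher 5 to 8 with an array left out, and 3 interferon genes were higher without _x_at probe sets. Igf2bp1 turned to 0.31 (limma adjusted p = 0.0113) without _x_at probe sets. With the mean of all probe sets, Map4 turned to -0.22 (adjusted p = 0.0965) and NSC replica A had 91 genes over 2-fold from B and C. Where no construction is named, the cause was not tested. Whether the replicate letters pair the cultures is not given. Deviations of same-lettered neurons and NSCs correlated at -0.03, -0.04 and -0.11, and deviations from means of 3 arrays cannot decide it. The fit with the replicate block called 6005 higher and 6088 lower. Signal near background limits how well the size of a difference is known.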
